A study of Mus musculus with 8 samples.

Results

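The mitochondrial protein import translocases are the subunits of the machinery through which proteins made in the cytosol enter the mitochondrion. They were taken here as the protein-coding genes whose mouse symbol begins with Timm or Tomm followed by a digit, plus Timmdc1, a rule that uses names only and no measured value. It found 26 of the 30153 genes in the table, and 24 of them reached at least 1 TPM (transcripts per 1000000 transcripts, an abundance that is corrected for length and relative to the rest of its library) in at least 4 of the 8 heart libraries. The other 2, Tomm20l and Timm8a2, were listed at or near 0.

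Nearly all mitochondrial proteins are encoded in the nucleus and pass the outer membrane through the TOM complex, made of receptors, the channel protein and small stabilising subunits. Proteins with a cleavable presequence then enter through the TIM23 complex of the inner membrane, pulled in by a motor of the matrix, while carrier proteins of the inner membrane are guided by small chaperones of the intermembrane space to the TIM22 complex. Heart muscle is dense in mitochondria and depends on this route to build its respiratory chain.

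Heart tissue of aged C57/BL6 mice was sequenced, and every mouse carried haplotype II of the gene for the human angiotensin II type 1 receptor. The 4 control libraries are labelled as aged carriers of that haplotype only, and the 4 western diet libraries as aged carriers given a western diet. Sex, exact age, the length of feeding and the promoter of the human receptor gene are not in the labels. Nor do the labels state whether the libraries stem from separate animals, so p-values cover only the spread among the 8 libraries, which may be technical.

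Several transcripts set libraries apart, partly along the line between the groups. Y-linked Eif2s3y lay between 21.1 and 29.0 TPM in controls and reached 22.3 TPM in western diet replicate 4, whereas replicates 1, 2 and 3 of that group held no more than 0.0231 TPM. Atrial Myl7 was above 100 TPM in control replicates 1 and 3 and in western diet replicate 2. The 7 cardiomyocyte markers, all well above 0 in every library, summed to 41240 to 44987 TPM in controls and 33445 to 42913 TPM in western diet libraries. Marker sums without overlap between the groups were those of macrophages, kidney and skeletal muscle. The macrophage sum was 45.0 to 57.4 TPM in controls against 57.9 to 91.1 TPM, mostly C1qb, with Cd68, Csf1r and Adgre1 overlapping. The kidney sum was 0 to 0.685 TPM in controls against 9.02 to 79.0 TPM, mostly Kap, with Umod overlapping. Miox and Slc34a1 also separated, at no more than 2.86 TPM. The skeletal muscle sum was 71.4 to 127.1 TPM in controls against 138.3 to 448.2 TPM, nearly all Acta1, with Myh4 and Myh1 at or near 0. Pvalb, also of the skeletal muscle list, separated the other way, at 1.04 to 1.13 TPM in controls and 0 to 0.788 TPM with the diet. In the endothelial and smooth muscle lists, whose sums overlapped, Cldn5 and Acta2 were higher in every western diet library, and Tagln and Pdgfrb lower. Of all genes tested, 4.85% separated upward and 1.75% downward. The part of these markers in the results was not tested. In bulk tissue, fewer cells of a type and less RNA per cell cannot be told apart. How deeply the libraries were sequenced is unknown, since TPM values do not retain it.

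No import translocase passed the test between the diets. With limma, 0 of the 24 tested genes reached an adjusted p under 0.05, against 0.301% of all 10969 genes tested, and 0 reached an unadjusted p under 0.05, against 11.7% of all genes. Of the 24 log2 fold changes (western diet minus control, on log2(TPM + 1), a scale that understates changes of low genes), 13 were positive and 11 negative. They ran from -0.16 for Timm17a to 0.20 for Timm10b, with a median of 0.03, beside a median of 0.06 over all genes. In size, without the sign, their median was 0.063 and that of all genes 0.110. In the lists described below it was 0.066 for import partners and 0.068 for mitochondrial ribosomal proteins. For subunits of oxidative phosphorylation it was 0.101. In 0 genes were all western diet libraries above all controls, against 4.85% of all genes, and in 1 gene, Timm17a, all were below, against 1.75% of all genes. A missed threshold does not show equal levels, but in this fit the intervals bound the differences in TPM + 1. The 95% interval lay within a 1.5-fold change of TPM + 1 either way for 23 of 24 genes and within 1.25-fold for 15. The exception at 1.5-fold was Timm10b, whose interval ran from -0.29 to 0.69. These bounds hold only for this fit, which had diet as its sole term. With a term for Y-linked transcripts, for example, the log2 fold change of Timm9 moved from -0.02 to 0.30.

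**Figure D1:**
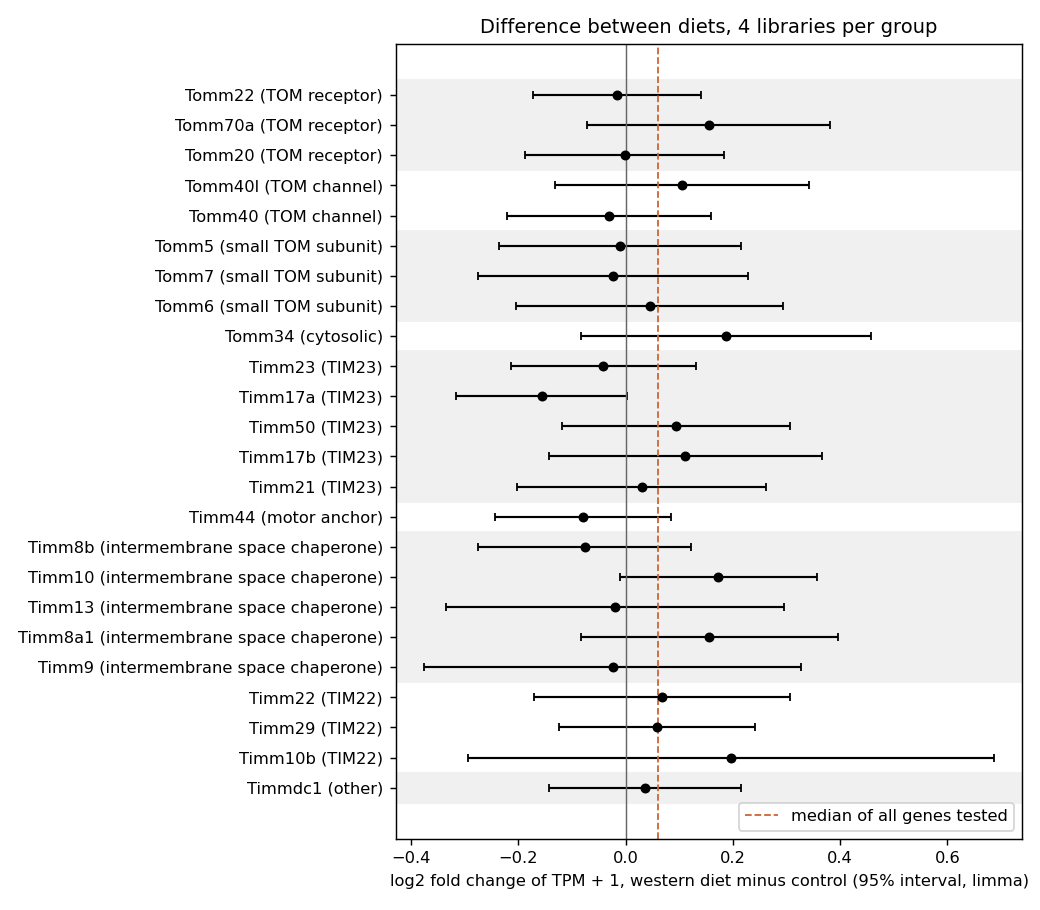
Log2 fold change of each of the 24 tested import translocases (western diet minus control on log2(TPM + 1), horizontal axis) with its 95% interval from limma, 4 libraries per group, ordered by role; the dashed line is the median of all genes tested, 0.06. Every interval crosses 0, that of Timm17a only just (-0.32 to 0.003), and that of Timm10b is the widest.

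Some promoter windows are shown as a description of their letters. Those of Timm17a and Timm17b are given because these are alternative subunits of the TIM23 channel. Their log2 fold changes, -0.16 and 0.11, passed no threshold, and that of Timm17b changed sign between settings. Neither window held any of the motifs read below. The window of Timm23 is given because it carries an ETS core, the letters CCGGAAGT or their reverse complement, here in capitals. The windows run from 250 bases before to 50 bases after the gene start, 5′ to 3′ on the gene's strand, from RefSeq on GRCm38.p6. The Timm17a window is chr1:135313688-135313987 (minus strand), the Timm17b window chrX:7899086-7899385 (plus strand) and the Timm23 window chr14:32201842-32202141 (minus strand).
Timm17a: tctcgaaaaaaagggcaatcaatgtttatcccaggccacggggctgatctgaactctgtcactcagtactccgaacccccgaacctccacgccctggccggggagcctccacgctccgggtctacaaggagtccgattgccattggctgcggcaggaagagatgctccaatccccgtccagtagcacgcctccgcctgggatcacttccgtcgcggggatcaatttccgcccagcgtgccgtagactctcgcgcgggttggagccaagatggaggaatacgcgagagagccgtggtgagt
Timm17b: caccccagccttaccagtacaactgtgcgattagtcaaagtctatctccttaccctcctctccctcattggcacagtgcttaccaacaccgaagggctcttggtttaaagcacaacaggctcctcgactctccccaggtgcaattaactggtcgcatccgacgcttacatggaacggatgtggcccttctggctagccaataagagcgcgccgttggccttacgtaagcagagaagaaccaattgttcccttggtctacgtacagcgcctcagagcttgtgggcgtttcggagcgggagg
Timm23: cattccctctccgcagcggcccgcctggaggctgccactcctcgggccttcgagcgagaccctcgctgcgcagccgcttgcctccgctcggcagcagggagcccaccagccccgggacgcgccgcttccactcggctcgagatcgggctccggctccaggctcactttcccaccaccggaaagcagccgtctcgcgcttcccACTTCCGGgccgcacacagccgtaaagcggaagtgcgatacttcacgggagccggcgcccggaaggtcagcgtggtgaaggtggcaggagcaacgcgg

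Windows were found for 23 of the 26 genes. These include Timm8a2 and Tomm20l, which were not tested, so the shares of tested genes below cover an unlike set. A gene counted as matching if any of its windows held the letters. The ETS core, read by GABPA and related factors, was in 7 of the 23 genes (30.4%), against 9.58% of tested genes and 4.31% of all genes with a window. The 7 were Timm10, Timm10b, Timm23, Timm29, Timm8a2, Timmdc1 and Tomm70a. The E-box CACGTG was in 5 (21.7%; Timm10, Timm8a1, Timm9, Tomm20 and Tomm20l), against 12.01% of tested genes and 8.09% of all. The NRF1 core GCGCATGC was in Timm13 alone (4.35%, against 6.19% and 3.05%) and the YY1 core AAGATGGC in Timm50 alone (4.35%, against 5.52% and 3.19%). The CRE TGACGTCA was in 0, against 3.51% and 2.03%. Both strands were read, and a match is a description of letters, not a bound site. The 7 genes with the ETS core held both well expressed ones, such as Timm23, and Timm8a2, which was listed at no more than 0.105 TPM.

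Levels spanned a wide range that was alike in both groups. The controls placed Timm23 (181.3 ± 3.74 TPM, SD, n = 4), Timm17a (180.6 ± 6.93 TPM) and Timm8b (179.8 ± 5.39 TPM) at the top, followed by Tomm5 (146.4 ± 9.89 TPM). The first 3 did not differ from each other beyond their spread, and all lay above every control value of Tomm5. Timm21 was lowest of the tested genes at 3.98 ± 0.344 TPM. Together the 26 genes summed to 1261 ± 25.2 TPM in controls and 1252 ± 78.3 TPM in western diet libraries, or 0.130% to 0.137% and 0.120% to 0.139% of each library's total.

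**Figure D2:**
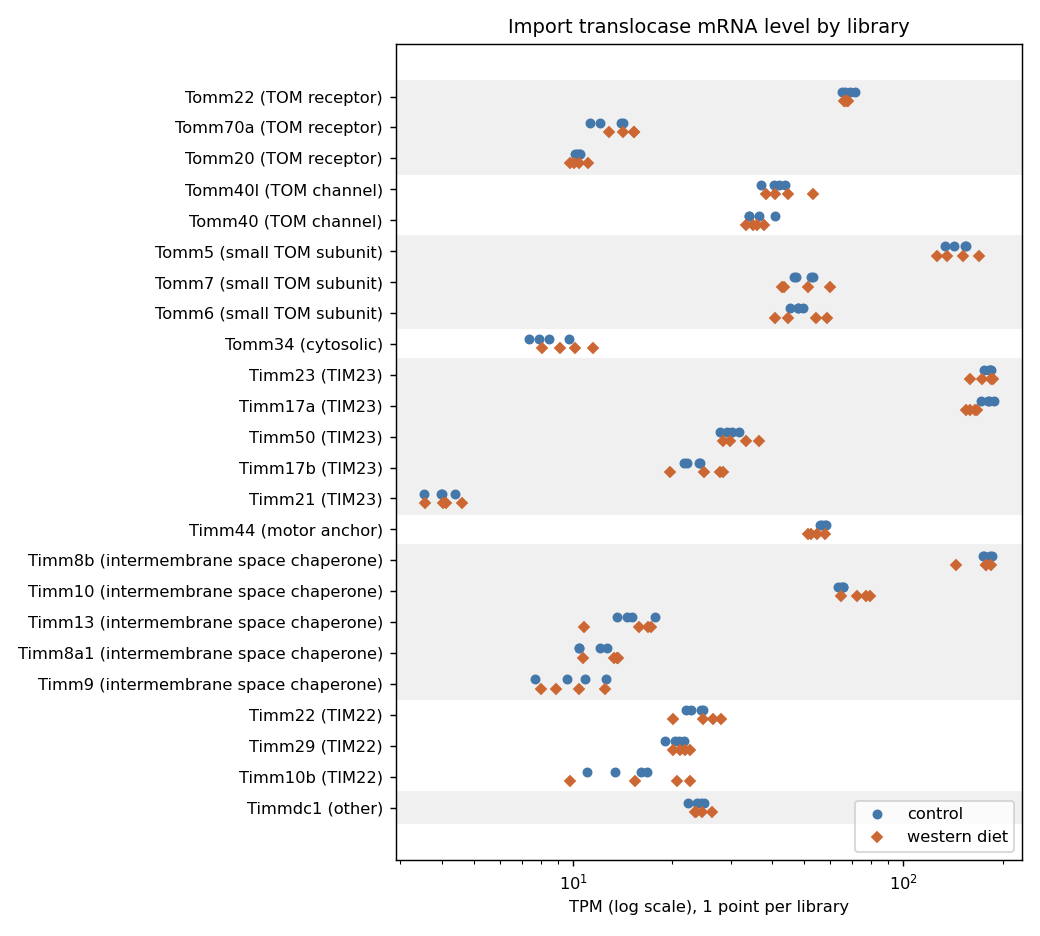
TPM of the 24 tested import translocases in each library (horizontal axis, log scale; 1 point per library, circles control, diamonds western diet), ordered by role. Timm23, Timm17a, Timm8b and Tomm5 lie above all the others in every library, Timm21 lies below 5 TPM, and only the points of Timm17a separate by diet.

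Among the TOM receptors, which recognise precursor proteins at the surface of the mitochondrion, Tomm22 was the most abundant. Tomm22 (chromosome 15) was at 65.5, 71.2, 68.8 and 66.5 TPM in controls and 68.2, 66.3, 66.6 and 67.7 TPM in western diet libraries, a log2 fold change of -0.02 (SE 0.07, limma adjusted p = 0.9596). The western diet values lay inside the control range. Tomm70a, the receptor of carrier proteins and a docking site for cytosolic chaperones, was at 12.1, 11.3, 14.1 and 13.99 TPM in controls and 12.9, 15.3, 15.3 and 14.2 TPM with the diet (log2 fold change 0.16, SE 0.10, limma adjusted p = 0.605). Its ranges overlapped. Tomm20, the receptor of presequences, was at 10.3 ± 0.183 TPM in controls and 10.3 ± 0.554 TPM with the diet (n = 4 each, log2 fold change -0.00). The related Tomm20l was listed at 0 in 7 libraries and at 0.438 TPM in western diet replicate 2. The receptors together summed to 91.2 ± 2.35 TPM in controls and 92.1 ± 0.320 TPM with the diet.

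The channel itself is encoded by Tomm40 and by the related Tomm40l, and in these hearts both were present at similar levels. Tomm40l (chromosome 1) was at 43.8, 37.1, 40.6 and 42.0 TPM in controls and 44.7, 53.2, 40.9 and 38.5 TPM with the diet (log2 fold change 0.11, 95% interval from -0.13 to 0.34). Western diet replicate 2 was the highest library and the other 3 lay close to the control range. Tomm40 was at 36.4 ± 3.12 TPM in controls and 35.6 ± 1.82 TPM with the diet (log2 fold change -0.03). Tomm40 thus made up 47.1 ± 2.19% of the pair in controls and 44.7 ± 2.53% with the diet, with overlapping ranges. Tomm40l overlaps Nr1i3 on the opposite strand over 4691 bases, but Nr1i3 itself was listed at no more than 0.163 TPM.

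Tomm5, Tomm6 and Tomm7 are single-pass subunits that stabilise the TOM complex. Tomm5 was at 154.7, 154.4, 142.4 and 134.3 TPM in controls and 135.7, 152.1, 126.5 and 169.9 TPM with the diet (log2 fold change -0.01, SE 0.10). The highest and the lowest library were both western diet libraries. Tomm6 was at 47.8 ± 1.80 TPM in controls and 49.8 ± 8.27 TPM with the diet, and Tomm7 at 50.01 ± 3.56 and 49.6 ± 8.10 TPM. For all 3 genes the lowest library was western diet replicate 3, and their sum there was 210.4 TPM, while the rest of that group lay between 254.7 and 258.4 TPM and the controls between 226.2 and 257.1 TPM. Tomm34, a cytosolic cochaperone of import precursors, was at 8.45, 7.38, 9.74 and 7.89 TPM in controls and 11.5, 10.1, 9.13 and 8.03 TPM with the diet (log2 fold change 0.19, SE 0.12, limma adjusted p = 0.601), with overlapping ranges.

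Timm17a gave the only separation between the groups, and a small one. Timm17a (ENSMUSG00000062580, chr1:135295213-135313778, minus strand) and its X-linked relative Timm17b each pair with Timm23 in the inner membrane. Timm17a was at 188.3, 171.6, 182.3 and 180.2 TPM in controls and 159.3, 165.5, 167.4 and 155.5 TPM with the diet. Every western diet library lay below every control, the nearest values being 171.6 and 167.4 TPM. The log2 fold change was -0.16 (SE 0.07, limma adjusted p = 0.439, 95% interval from -0.32 to 0.003). It kept its sign in every alternative setting, from -0.24 to -0.13, with adjusted p of 0.192 to 0.999. With a model term for Y-linked transcripts, which leaves western diet replicate 4 alone to set against the controls, it was -0.21 (limma adjusted p = 0.650), and without the 3 libraries with atrial transcripts -0.13 (limma adjusted p = 0.999).

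Timm17b (chrX:7899357-7908351, plus strand) was at 24.1, 24.2, 21.6 and 22.2 TPM in controls and 27.8, 28.4, 24.9 and 19.7 TPM with the diet (log2 fold change 0.11, SE 0.12, limma adjusted p = 0.763). The 3 western diet libraries without Y-linked transcripts were above every control, and replicate 4, which has them, was the lowest of all 8. With the term for Y-linked transcripts the value was -0.21 (SE 0.13, limma adjusted p = 0.737), which is that 1 library against the controls. Diet and the lack of Y-linked transcripts cannot be told apart in the other 3. Timm17a made up 88.6%, 87.6%, 89.4% and 89.0% of the pair in controls and 85.1%, 85.4%, 87.1% and 88.8% with the diet. These shares overlapped, with western diet replicate 4 inside the control range.

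**Figure D3:**
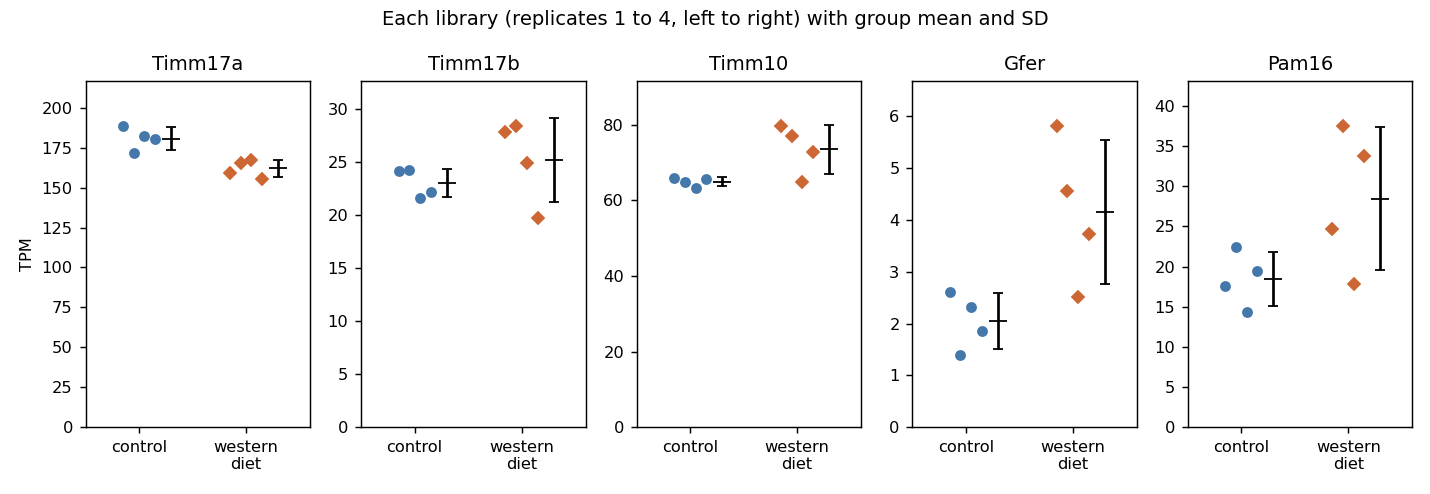
TPM (vertical axes from 0, linear) of Timm17a, Timm17b, Timm10 and the import partners Gfer and Pam16 in each library, replicates 1 to 4 from left to right, with the group mean and SD beside them (n = 4). Only Timm17a separates the groups; Timm10, Gfer and Pam16 have western diet means above the controls with overlapping points.

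Timm23, the channel subunit, was at 182.2, 175.9, 182.9 and 184.3 TPM in controls and 185.0, 187.5, 159.8 and 173.8 TPM with the diet (log2 fold change -0.04, SE 0.08, limma adjusted p = 0.887). In this row western diet replicates 1 and 2 were the highest and replicate 3 the lowest of the 8 libraries. The order changed when near-identical copies, described below, were added. Replicates 1 and 2 were then the lowest, at 187.3 and 189.1 TPM, and replicate 3 was at 189.7 TPM. Timm50, the receptor that hands presequences to the channel, was at 29.9 ± 1.66 TPM in controls and 32.1 ± 3.66 TPM with the diet. Timm21, which links TIM23 to the TOM complex, was at 3.98 ± 0.344 and 4.09 ± 0.431 TPM. Neither differed beyond its spread. The subunits of TIM23 summed to 418.8 ± 8.51 TPM in controls and 399.7 ± 19.0 TPM with the diet, with overlapping ranges. Timm44, which anchors the matrix motor to the channel, was at 56.6, 58.3, 58.1 and 56.2 TPM in controls and 57.9, 55.0, 52.6 and 51.4 TPM with the diet (log2 fold change -0.08, SE 0.07, limma adjusted p = 0.730). Of the 4 western diet values 3 lay below the controls and 1 within them.

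The chaperones of the intermembrane space escort carrier and other hydrophobic precursors in pairs, Timm9 with Timm10 and Timm8 with Timm13. Timm10 (chromosome 2) was at 65.9, 64.8, 63.3 and 65.7 TPM in controls and 79.6, 76.9, 64.9 and 72.7 TPM with the diet. The controls were tight, and 3 of 4 western diet libraries were above all of them. The log2 fold change was 0.17 (SE 0.08, limma adjusted p = 0.453), and 0.23 without western diet replicate 3 (unadjusted p then under 0.05, limma adjusted p = 0.248). Its partner Timm9 was at 7.64, 12.6, 10.8 and 9.58 TPM in controls and 8.91, 8.02, 10.4 and 12.5 TPM with the diet (log2 fold change -0.02, SE 0.16). The abundance of Timm10 was therefore several times that of Timm9 in every library, on a scale per length.

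Timm8b was at 183.7, 185.2, 174.5 and 176.0 TPM in controls and 184.4, 177.6, 144.9 and 177.7 TPM with the diet (log2 fold change -0.08, SE 0.09, limma adjusted p = 0.792). Apart from replicate 3, the western diet values lay within the control range. Its relative Timm8a1, the X-linked counterpart of the human deafness-dystonia gene, was at 10.4, 12.1, 12.7 and 10.4 TPM in controls and 13.3, 10.7, 13.6 and 13.7 TPM with the diet (log2 fold change 0.16, SE 0.11, limma adjusted p = 0.622). All but western diet replicate 2 were above the controls. Timm8b made up 94.0 ± 0.624% of that pair in controls and 93.0 ± 1.19% with the diet. Timm13 was at 15.2 ± 1.75 and 15.2 ± 2.97 TPM. Timm8b starts 98 bases from Sdhd, a subunit of complex II, on the opposite strand, and Sdhd was at 406.0 to 433.6 TPM in controls and 379.5 to 421.2 TPM with the diet.

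Of the TIM22 complex, which inserts carriers into the inner membrane, the channel gene Timm22 was at 24.4, 24.8, 22.0 and 22.7 TPM in controls and 24.8, 28.0, 20.03 and 26.5 TPM with the diet (log2 fold change 0.07, SE 0.11, limma adjusted p = 0.858). The western diet libraries held both the highest and the lowest value. Timm29, a further subunit, was at 20.5 ± 1.16 and 21.4 ± 1.05 TPM. Timm10b, the membrane-bound member of the small Tim family, had the largest SE of the tested genes, with 16.8, 11.1, 16.01 and 13.4 TPM in controls and 22.6, 20.6, 9.78 and 15.4 TPM with the diet (log2 fold change 0.20, SE 0.22, limma adjusted p = 0.783). Without western diet replicate 3 its log2 fold change was 0.43 (unadjusted p then under 0.05, limma adjusted p = 0.317), and without western diet replicate 1 it was 0.05. Timmdc1, named for its resemblance to this family and known as an assembly factor of complex I, was at 23.8 ± 1.17 and 24.5 ± 1.32 TPM.

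The spread within the western diet group followed single libraries. Western diet replicate 3 was the lowest of the 8 libraries for 10 of the 24 genes. Timm23 is among them only when its near-identical copies are left out. In that library 18 of the 24 were below their mean over all libraries. Western diet replicates 1 and 2 each had 19 of 24 above it, but all genes tested were shifted there too: the median deviation from the gene mean, on log2(TPM + 1), was 0.075 and 0.070 for the import genes and 0.089 and 0.130 for all genes. In western diet replicate 3 it was -0.08 for the import genes and 0.02 for all genes. The gap was widest among short transcripts. In that library the 10 tested import genes with a median coding transcript under 1000 bases had a median deviation of -0.22, beside -0.07 for the 2065 genes of that length. The mitochondrially encoded share of TPM was 38.5% in western diet replicate 3, 39.3% in replicate 4, 34.6% in replicate 2 and 27.3% in replicate 1, and 34.6% to 36.5% in controls. Its part in the spread was not tested.

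**Figure D4:**
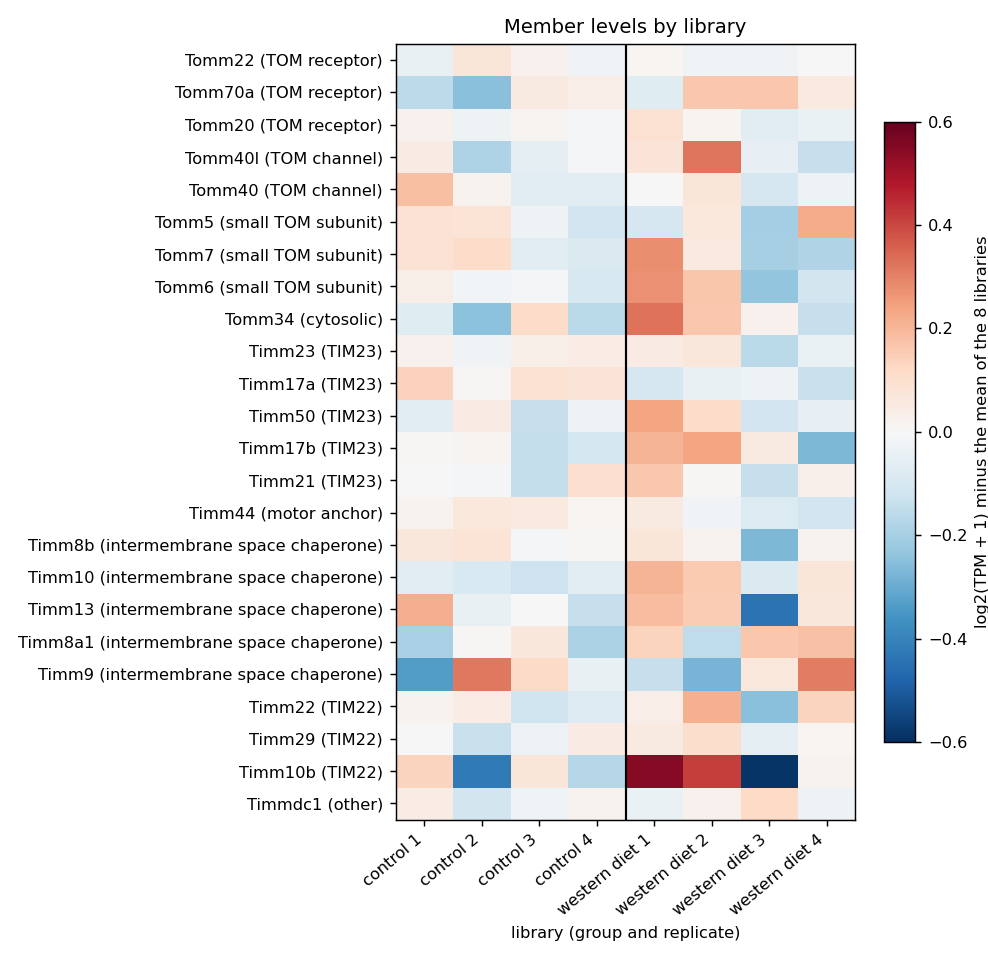
Deviation of each tested import translocase in each library from its mean over the 8 libraries (colour, log2(TPM + 1), red above and blue below), ordered by role, with a line between the groups. Western diet replicate 3 is below the mean for 18 of 24 genes, and replicates 1 and 2 are above it for 19 each, where the median of all genes tested is also above its mean.

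Near-identical gene copies elsewhere in the genome bear on Tomm20, Timm23 and Timm8a1, since short reads can be assigned to either. The processed pseudogene Gm14494 (chr2:153826171-153826605, plus strand) was listed at 33.3 to 41.1 TPM, above Tomm20 itself. Of 435 coding bases compared, 2 differ, C63T and G345A, counted from 1 at the first coding base of Tomm20. The stretches around them, coding bases 33 to 93 and 315 to 375 from GENCODE vM21 transcripts, show how little separates the copies; the differing base is in capitals.
Tomm20 33 to 93: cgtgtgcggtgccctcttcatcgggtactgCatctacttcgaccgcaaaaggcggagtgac
Gm14494 33 to 93: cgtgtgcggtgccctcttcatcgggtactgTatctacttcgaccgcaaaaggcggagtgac
Tomm20 315 to 375: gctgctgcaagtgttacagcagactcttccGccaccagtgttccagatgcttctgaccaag
Gm14494 315 to 375: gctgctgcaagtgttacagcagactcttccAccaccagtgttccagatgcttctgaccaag

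Tomm20 with its copies summed to 48.2 ± 3.41 TPM in controls and 47.6 ± 1.78 TPM with the diet (log2 fold change -0.02, limma adjusted p = 0.959), against -0.00 for Tomm20 alone. Tomm20 itself held 21.5 ± 1.27% and 21.7 ± 0.568% of the sum. TPM is corrected for length, and the Gm14494 transcript (435 bases) is far shorter than that of Tomm20 (median coding transcript 2680 bases). Such shares of TPM are therefore not shares of reads. The copies of Timm23 include Gm10171 (chromosome 1) and Gm10233 (chromosome 14), whose listed values were identical in every library, from 0.708 to 11.4 TPM, and Gm10273 (chromosome 10), from 0.0176 to 7.82 TPM. Timm23 with its copies was at 200.2, 191.5, 207.8 and 208.2 TPM in controls and 187.3, 189.1, 189.7 and 190.7 TPM with the diet. The Timm23 row held 98.8%, 99.2%, 84.2% and 91.1% of this sum in western diet replicates 1 to 4, and 88.0% to 91.9% in controls. Summed in this way the groups did not overlap, although Timm23 alone overlapped. The western diet libraries were lower, as in 1.75% of all genes tested. The nearest values were close, at 191.5 and 190.7 TPM, and the sum was added after the data were seen. The log2 fold change was -0.09 (SE 0.07, limma adjusted p = 0.662). Timm8a1 with its copy Gm9797 (chromosome 10) summed to 17.3 ± 1.64 TPM in controls and 20.2 ± 3.28 TPM with the diet (log2 fold change 0.21, SE 0.12, limma adjusted p = 0.559), with overlapping ranges.

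**Figure D5:**
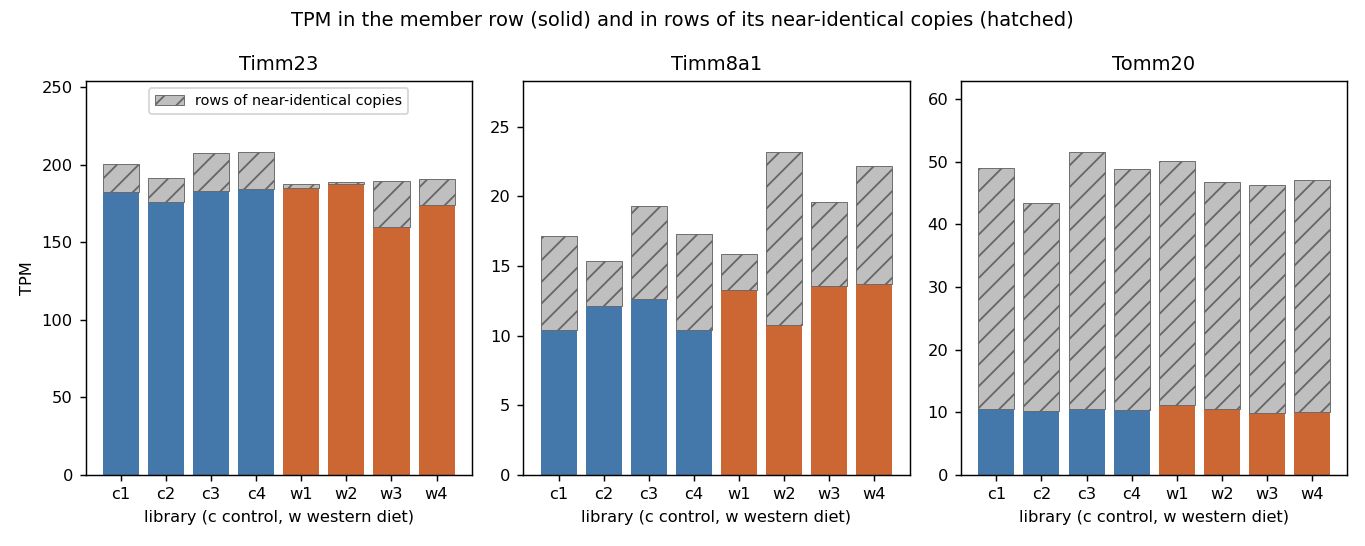
TPM of Timm23, Timm8a1 and Tomm20 (solid, blue control and orange western diet) with the TPM of their near-identical copies stacked on top (hatched), 1 bar per library, vertical axes from 0. The Timm23 totals run from 191.5 to 208.2 TPM in controls and 187.3 to 190.7 TPM with the diet. Most of the Tomm20 total in TPM lies in the copies, which are shorter, so this is not a share of reads.

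Other genes of the import route, a list of 26 that are not translocases by name (motor, oxidative folding, outer membrane insertion, proteases and matrix chaperones), were all tested. With limma 0 passed an adjusted p under 0.05, and 2 (7.69%) passed an unadjusted p under 0.05, both with higher western diet means, against 11.7% of all genes. Their median log2 fold change was 0.0077. The first of the 2 was Gfer, the oxidase that keeps the intermembrane disulfide relay active, at 2.61, 1.39, 2.32 and 1.87 TPM in controls and 5.80, 4.56, 2.51 and 3.73 TPM with the diet. Of the western diet libraries 3 lay above all controls, and the log2 fold change was 0.73 (SE 0.20, limma adjusted p = 0.170). The second was Pam16, which restrains the J-protein of the matrix motor, at 17.6, 22.5, 14.4 and 19.4 TPM in controls and 24.7, 37.5, 17.9 and 33.8 TPM with the diet (log2 fold change 0.56, SE 0.21, limma adjusted p = 0.331). Again 3 of 4 lay above all controls. The unadjusted p of Pam16 was over 0.05 when control replicate 3, western diet replicate 2 or western diet replicate 4 was left out, without the 3 libraries with atrial transcripts, and with median-of-ratios scaling or quantile normalization. That of Gfer was over 0.05 with the term for Y-linked transcripts.

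Other nuclear genes for mitochondrial proteins also gave 0 calls at an adjusted p under 0.05 with limma. Of 83 tested subunits of oxidative phosphorylation, 0 with a higher and 6 with a lower western diet mean had an unadjusted p under 0.05, and the median log2 fold change was -0.08. These are 0% and 7.23%, beside 9.20% higher and 2.51% lower among all genes tested. Of 77 mitochondrial ribosomal proteins the counts were 3 and 3 (3.90% each), with a median of -0.02. Those lists and the import translocases were not tested against each other.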

How the data were processed

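Libraries came from Qiagen-purified RNA and a stranded Illumina TruSeq kit with poly(A) selection, per the labels' protocols. The authors deposited TPM per gene. The submitters' processing notes list kallisto, DESeq2 and GRCm38. How transcripts were joined into genes, with which annotation, and whether strand was used in counting are not given in the sources used, so genes overlapping on opposite strands may share reads. TPM holds no depth, and no counting interval is given.

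GENCODE vM21 on GRCm38 supplied symbols and coordinates for 29732 of 30153 identifiers. Groups came from the labels, and replicate numbers follow accession order. A gene was tested if 4 or more libraries had 1 TPM or more (10969 genes). The test was limma 3.58.1 (R 4.3.3) applied to log2(TPM + 1), two-sided, with diet as the sole factor, moderated variances that follow the mean level, and Benjamini-Hochberg adjustment over every gene tested. This step was checked on simulated data with independent errors, which hold no shifts shared by a whole library. Near-identical copies were found by megablast (BLAST 2.17.0; identity of 90% or more over 150 or more bases and 50% of the copy). Python 3.11.15 with pandas 2.3.3 made the tables, and matplotlib 3.10.9 drew the figures.

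The members, lists and tests were chosen with earlier results of these data known. Every member is named. Values per library belong by rule to the most abundant gene of each role, to members without overlap between groups and to genes with an unadjusted p under 0.05. Those of other members, and the neighbouring genes, were chosen after the values were seen. Alternatives covered the pseudocount (0.1 or 0.5), the filter (none, or a mean from 5 TPM up), scaling, variance priors, array weights and omission of single libraries. Added after seeing the data were a term for Y-linked transcripts (1 TPM or more of Eif2s3y), a fit to the 5 libraries that have them, a fit without the 3 libraries with 100 TPM or more of atrial Myl7, and sums over near-identical copies.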

Additional observations from a re-analysis of the deposited data

Results flagged for a closer look

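In groups of 4 libraries, the gap between the highest or lowest value and its nearest neighbour was divided by the range of the group. The limit for this ratio was one that chance alone passes in about 1 in 20 groups. Of 136 groups of 4 values, 5 passed it and so stood apart, which is no more than chance alone gives. Western diet replicate 2 was low for Timm8a1, at 10.7 TPM, while the rest of the group lay between 13.3 and 13.7 TPM. Its identical copy Gm9797 was highest in that library, at 12.5 TPM, and Timm8a1 with the copy summed there to 23.2 TPM, the highest of the 8 libraries. Replicate 2 was also the only library with a listed value for Tomm20l, so that Tomm20 made up 96.0% of that pair there and 100% in the others. With every other share at 100%, any Tomm20l value above 0 would have stood apart. The control group, without any range, could not be flagged. Western diet replicate 3 was low for the summed small TOM subunits, at 210.4 TPM against 254.7 to 258.4 TPM. Western diet replicate 4 was low for Mtch2, an insertase of the outer membrane, at 42.9 TPM against 47.8 to 48.2 TPM, and for Mtx2, a metaxin of the sorting and assembly machinery, at 51.7 TPM against 58.9 to 59.9 TPM.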

How the results depend on the processing

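No import translocase passed an adjusted p under 0.05 with limma in any of 22 alternative settings (18 planned, 4 added after seeing the data); the smallest adjusted p was 0.192, for Timm17a with median-of-ratios scaling. At an unadjusted p under 0.05 the count with a higher western diet mean, 0 as reported, was 1 (Timm10) with no filter, with TPM rescaled without mitochondrially encoded genes and with array weights, and 0 to 2 over the settings that leave out 1 library. It was 2 without western diet replicate 3 (Timm10 and Timm10b), 2 without western diet replicate 4 (Timm17b and Tomm34) and 1 without western diet replicate 2 (Timm8a1). The count with a lower mean, 0 as reported, was 1 (Timm17a) with no filter, median-of-ratios scaling, quantile normalization, array weights and in the 5 libraries with Y-linked transcripts, where the lone western diet library is assumed to vary like the controls. It was 0 without each library in turn. The count of import partners, 2 as reported, was 1 with a mean of at least 5 TPM (Gfer was then not tested). It was 5 with median-of-ratios scaling (Gfer higher, and Aifm1, Hspa9, Mtch2 and Samm50 lower, without Pam16). With quantile normalization it was 3 (Gfer higher, Aifm1 and Samm50 lower, without Pam16). Rescaled without mitochondrially encoded genes it was 4 (Dnajc19, Gfer and Pam16 higher, Aifm1 lower). It was 1 without the 3 libraries with atrial transcripts, and 1 to 3 when 1 library was left out. Of those, the fit without western diet replicate 1 also had Aifm1 lower. The median log2 fold change of the tested translocases, 0.03 as reported, was -0.038 with median-of-ratios scaling and -0.052 with quantile normalization, where the medians of all genes were -0.0066 and -0.010. Only 6 genes, Timm10, Timm10b, Timm17a, Timm44, Timm8a1 and Tomm70a, kept their sign in every setting. Of 527 values of single genes 515 moved by less than 1 SD; the other 12 came from the term for Y-linked transcripts or from the 5 libraries that have them, with Timm17b at -0.21, Tomm40l at -0.08, Tomm34 at -0.05, Timm9 at 0.30, Tomm5 at 0.22 and Tomm7 at -0.19. The cause was not tested. No paired analysis was possible because the replicate numbers are in accession order and pair nothing.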

Other observations

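Some import genes lie close to the start of a neighbour on the opposite strand. Parg, an enzyme that removes poly(ADP-ribose), starts 51 bases from Timm23 and was at 4.43 to 6.16 TPM in controls and 6.48 to 8.90 TPM in western diet libraries, without overlap between the groups, as in 4.85% of all genes tested. Pqbp1 starts 88 bases from Timm17b and was at 15.4 to 17.0 TPM in controls and 14.5 to 18.3 TPM with the diet. Timm9 and Tomm20l overlap at their 3′ ends over 49 bases on opposite strands, and Tomm20l was listed at 0 in 7 of 8 libraries although Timm9 was at 7.64 to 12.6 TPM. These neighbours were picked after their values were seen, other such neighbours are not shown, and their values are descriptions with no test.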
